A study of Mus musculus with 4 samples.

Results

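Intermediate filament genes were followed in mouse E14 embryonic stem cells after CRISPR/Cas9 targeting of Ssrp1, which encodes a subunit of the FACT histone chaperone. The set was defined by name, not by any measured value: vimentin (Vim), the keratins Krt7, Krt8, Krt18 and Krt19, and the lamins Lmna, Lmnb1 and Lmnb2. All 8 symbols were found among the 55353 in the count table, and all 8 passed the filter on low counts. The groups were 2 libraries of wild-type E14 cells, called control 1 and 2, and 2 libraries of E14 cells labelled as Ssrp1 knockout. All 4 came from cells grown in serum with LIF on gelatin, and the labels give the strain as 12910la. The labels do not say whether the targeted cells are a single clone, or whether the libraries within each group are independent cultures, so p-values measure only the spread among these 4 samples, which could be technical. The treatment text also mentions an empty pSuper puro vector and puromycin given to wild-type cells for a Usp7 knockdown, without saying whether these controls received it.

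Intermediate filaments are rope-like polymers that give cells and nuclei mechanical strength. Keratins form obligate pairs of a type I chain (here Krt18 and Krt19) with a type II chain (Krt7 and Krt8), and are the filaments of simple epithelia. In the early mouse embryo they are known from trophectoderm and from endoderm. Vimentin, a type III chain, assembles by itself and is typical of mesenchymal cells and of many cultured lines. Lamins line the inner nuclear membrane: B-type lamins are made in nearly all cells, whereas A-type lamins from Lmna are known to be scarce in embryonic stem cells and to increase on differentiation.

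Of the 8 genes, Vim fell to 0.626 of its control level, Krt18 rose 1.43-fold and Lmnb1 rose 1.12-fold. Krt7, Krt8, Krt19, Lmna and Lmnb2 did not pass the test. The 3 calls amount to 37.5% of the set, against 33.6% of all 17482 genes tested, which were called by edgeR's quasi-likelihood test at an adjusted p under 0.05. In single directions 2 of 8 were called higher, against 16.5% of all genes, and 1 of 8 lower, against 17.2%. The share called was therefore close to that of the whole transcriptome. The median log2 fold change of the 8 genes was 0.03, and that of all tested genes was 0.00. The call of Lmnb1 stood near the threshold and was lost under 5 of 12 alternative settings, whereas Vim and Krt18 were called under all 12.

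The promoters of Vim, Krt8 and Krt18 are shown because Vim and Krt18 were called under all 12 alternatives, and Krt8 encodes the usual partner chain of Krt18 and lies next to it. Each window runs from 250 bases before to 50 bases after a RefSeq start site, on GRCm38.p6 (mm10), written 5′ to 3′ on the gene's strand. Capitals mark motifs, each searched on both strands. The TATA element was read as TATAA, and the GC box, a site for Sp1-like factors, as GGGCGG. The CCAAT box was read by the letters of its name. The AP-1 site, bound by Fos and Jun, was read as TGANTCA.
Vim, chr2:13574061-13574360, plus strand: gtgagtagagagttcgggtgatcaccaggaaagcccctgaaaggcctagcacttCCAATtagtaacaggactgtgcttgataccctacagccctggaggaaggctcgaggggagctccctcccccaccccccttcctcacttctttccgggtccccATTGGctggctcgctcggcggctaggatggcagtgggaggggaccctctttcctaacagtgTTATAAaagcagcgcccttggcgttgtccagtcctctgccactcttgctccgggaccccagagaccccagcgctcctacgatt
Krt18, chr15:102027966-102028265, plus strand: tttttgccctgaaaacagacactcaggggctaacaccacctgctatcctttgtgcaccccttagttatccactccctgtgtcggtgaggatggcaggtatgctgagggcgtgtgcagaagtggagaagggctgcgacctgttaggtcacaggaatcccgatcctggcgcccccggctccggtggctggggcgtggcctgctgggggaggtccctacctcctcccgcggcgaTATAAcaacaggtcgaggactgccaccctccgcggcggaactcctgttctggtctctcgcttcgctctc
Krt8, chr15:102004293-102004592, minus strand: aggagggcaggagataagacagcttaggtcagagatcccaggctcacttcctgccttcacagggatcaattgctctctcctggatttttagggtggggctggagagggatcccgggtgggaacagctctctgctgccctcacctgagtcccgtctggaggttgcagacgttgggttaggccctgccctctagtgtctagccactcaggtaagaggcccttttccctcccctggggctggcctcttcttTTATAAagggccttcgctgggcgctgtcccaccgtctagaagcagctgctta
A TATAA match was present in these 3 windows, in none of the other 5 windows searched (Lmna, Lmnb2 and Krt7) and in 24.9% of all 32851 promoter windows of this length. In Vim it began 32 bases before the RefSeq start site, in Krt18 19 bases before it and in Krt8 1 base before it. In Vim and Krt8 a match on the opposite strand overlapped it by all but 1 base, so the capitals there are 1 base longer. The gene positions given below come from GENCODE, and for these 3 genes they begin upstream of the RefSeq start site and of the TATAA match. CCAAT matches were found in Vim alone among the 3, at 196 and, on the opposite strand, 94 bases before the start, and in 37.4% of all windows. The Krt7 window, not printed, held 4 GC boxes, and 1 window each of Lmna and Lmnb2 held 1, a motif found in 35.7% of all windows. An AP-1 match was found in 1 of the Lmna windows, 40 bases past its start site, and in 7.81% of all windows. Windows of 6 of the 8 genes were searched, with 8 start sites in all. Lmnb1 was left out of the search, and Krt19 had no window in the source used. A match is a description of these letters and shows no binding, and the motifs were chosen with the sequences in view.

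Ssrp1, the targeted gene, stood at 282.2 and 305.7 CPM (counts scaled to a common library size, after TMM normalisation) in control cells, against 305.5 and 327.3 CPM in the targeted cells. Its transcript was not called lower (log2 fold change 0.11 ± 0.06 (SE), edgeR adjusted p 0.2257). It was called higher under 2 of 12 alternatives, by library size alone (0.19) and without knockout replicate 1 (0.16). Counts per gene do not show whether the coding sequence is disrupted, so they do not check the labels, and the targeted samples are named by their label only. Total counts ranged from 22611434 to 25344190 per library. Gm26917 and Gm42418, which resemble ribosomal RNA, took between 4.64% and 10.3% of counts and were lower in the knockout-labelled libraries; leaving them out together with mitochondrial genes changed no call among the 8 genes. Of all calls 49.0% were rises, and 63.7% when libraries were scaled by total counts alone, which moved the median of all genes to 0.09. The 10 embryonic stem cell markers examined, among them Pou5f1 (310.2 to 415.7 CPM), were present in all 4 libraries. Of these 3 rose and 6 fell (median log2 fold change -0.27), so 90.0% were called, against 33.6% of all genes tested. The 4 with the smallest adjusted p were Dppa5a (log2 fold change -0.61), Fbxo15 (0.63), Pou5f1 (-0.37) and Esrrb (-0.35). The summed level of the 10 markers was 4951 and 5110 CPM in the controls and 4206 and 4112 CPM in the knockout-labelled libraries.

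Vim (chromosome 2, 13573927 to 13582826, plus strand, mm10) was at 110.8 and 111.5 CPM in control cells and at 71.2 and 68.0 CPM in the knockout-labelled libraries. The controls lay close together and well above both other libraries. The log2 fold change was -0.68 ± 0.07 (SE, 2 libraries a group), at an edgeR adjusted p of 2.7e-07 and a 95% interval from -0.82 to -0.53. Over the 12 alternatives it ranged from -0.71 to -0.59. Among 10816 other genes with a mean of at least 5 CPM, the genes whose 4 values moved most like those of Vim were Aldh6a1, Gabarapl1 and Flnc. Likeness was the Euclidean distance between centred log2 values, at 0.0226, 0.0245 and 0.0258 over 4 libraries. Aldh6a1 encodes a mitochondrial dehydrogenase of valine breakdown, Gabarapl1 an Atg8-family autophagy protein and Flnc the actin crosslinker filamin C. With 4 libraries in 2 groups, such likeness is mostly an equal group difference.

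**Figure D1:**
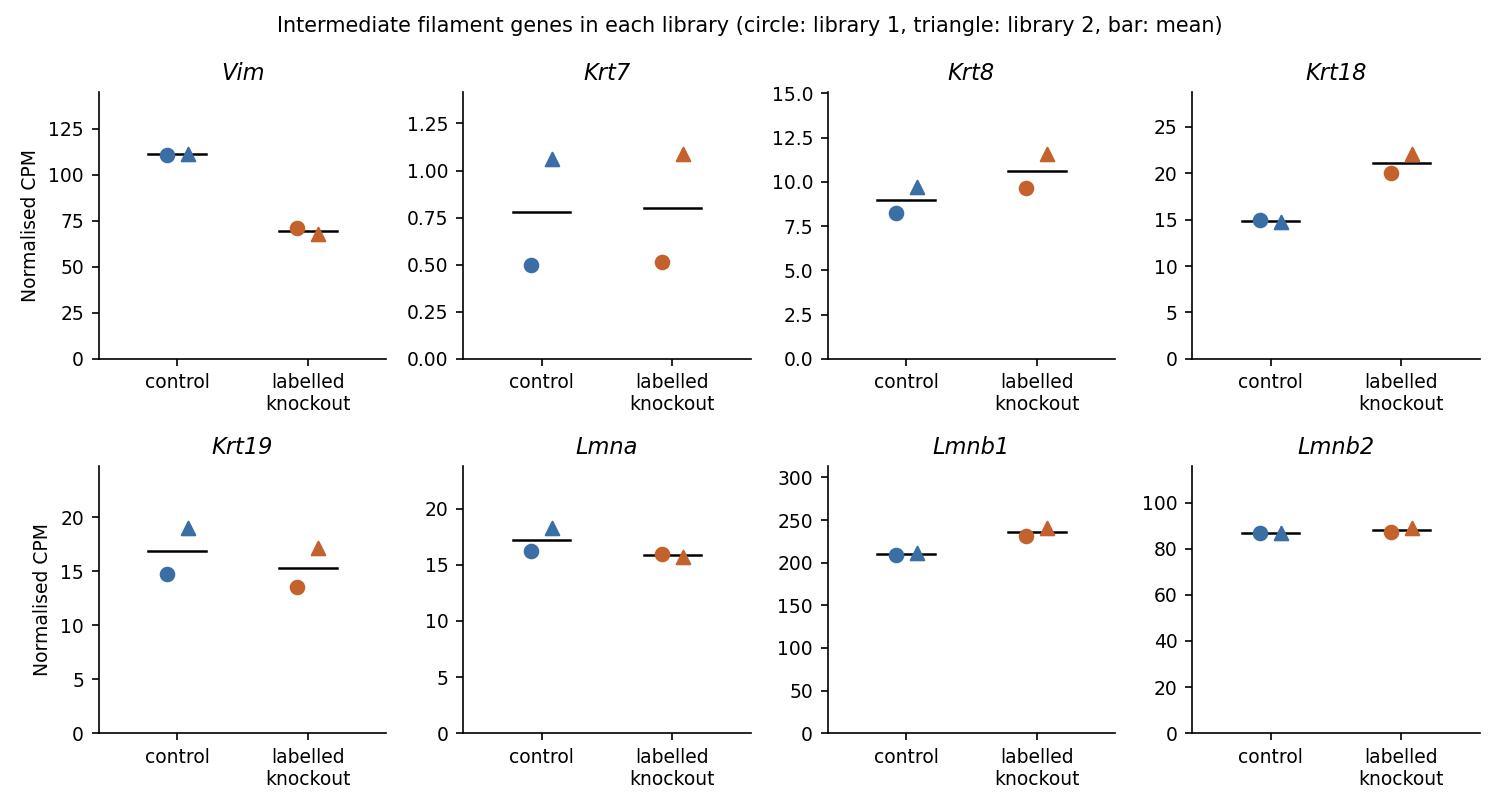
Normalised CPM (y axes from 0) of the 8 intermediate filament genes in the 2 control libraries and the 2 knockout-labelled libraries (x axes), with a bar at each group mean. Vim lies lower and Krt18 higher in both knockout-labelled libraries, while the triangles of Krt7, Krt8 and Krt19 lie above the circles in both groups.

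Krt18, a type I keratin (chromosome 15, 102028180 to 102032027, plus strand), had 328 and 359 counts in control cells against 468 and 526 in the knockout-labelled libraries, or 14.8 ± 0.149 CPM (SD, n = 2) against 21.1 ± 1.47 CPM. Both knockout-labelled libraries lay above both controls, by more than the spread within either group. The log2 fold change was 0.51 ± 0.12 (SE), edgeR adjusted p 0.0020, with a 95% interval from 0.27 to 0.76. Over the alternatives it ranged from 0.44 to 0.60, with adjusted p from 9.4e-05 to 0.0184.

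Krt8, the type II partner, lies 23697 bases from Krt18 on the opposite strand (chromosome 15, 101996698 to 102004482). Its levels were 8.25 and 9.72 CPM in the controls and 9.67 and 11.6 CPM in the knockout-labelled libraries. The groups overlapped slightly, since control 2 stood just above knockout 1. The log2 fold change of 0.24 ± 0.15 (SE) did not pass (edgeR adjusted p 0.2550), and its interval, -0.09 to 0.56, holds both no change and the size measured for Krt18. Per length of transcript, the Krt8 to Krt18 ratio was 0.407 and 0.487 in controls against 0.354 and 0.384 in the knockout-labelled libraries. The ratio was lower in both of the latter, with an exact 2-sided permutation p of 0.333, the smallest that 2 against 2 libraries allow.

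Krt19, a type I keratin without a tail domain (chromosome 11, 100140810 to 100148665, minus strand), was at 14.7 and 19.0 CPM in control cells and at 13.5 and 17.1 CPM in the knockout-labelled libraries. The groups overlapped, and the spread within each exceeded the difference between them. The log2 fold change was -0.14 ± 0.14 (SE), edgeR adjusted p 0.4860, interval -0.44 to 0.16. The estimate took either sign when single libraries were left out, from -0.32 to 0.05.

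Krt7, a type II keratin of simple and ductal epithelia (chromosome 15, 101411043 to 101430313, plus strand), was close to the limit of detection, with 11 and 26 counts in controls against 12 and 26 in the knockout-labelled libraries. These correspond to 0.499, 1.06, 0.513 and 1.09 CPM. Counting error alone allows 5.49 to 19.7 counts for the value of 11 and 17.0 to 38.1 for a value of 26 (exact Poisson 95% intervals, which cover counting error only). The log2 fold change was 0.03 ± 0.53 (SE), edgeR adjusted p 0.9721, and its interval from -1.08 to 1.14 does not resolve a change in either direction at this depth.

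Krt7, Krt8 and Krt19 each stood higher in the library numbered 2 of both groups. On the log2 scale, the library numbered 2 exceeded the library numbered 1 by 1.05 in the controls and 1.06 in the knockout-labelled libraries for Krt7. The differences were 0.36 and 0.34 for Krt19 and 0.24 and 0.26 for Krt8. For Krt18 they were -0.02 and 0.14, and for Vim 0.01 and -0.07. Before adjustment for depth, the exact Poisson 95% intervals of the 2 libraries overlapped in both groups for Krt7 and Krt8, but not for Krt19. For Krt8 in the controls they were 156.5 to 210.4 and 208.7 to 270.2 counts, and for Krt19 290.6 to 362.3 and 422.7 to 508.2. The shared direction of the 3 keratins was noticed after the values were seen, and a cause was not tested.

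**Figure D2:**
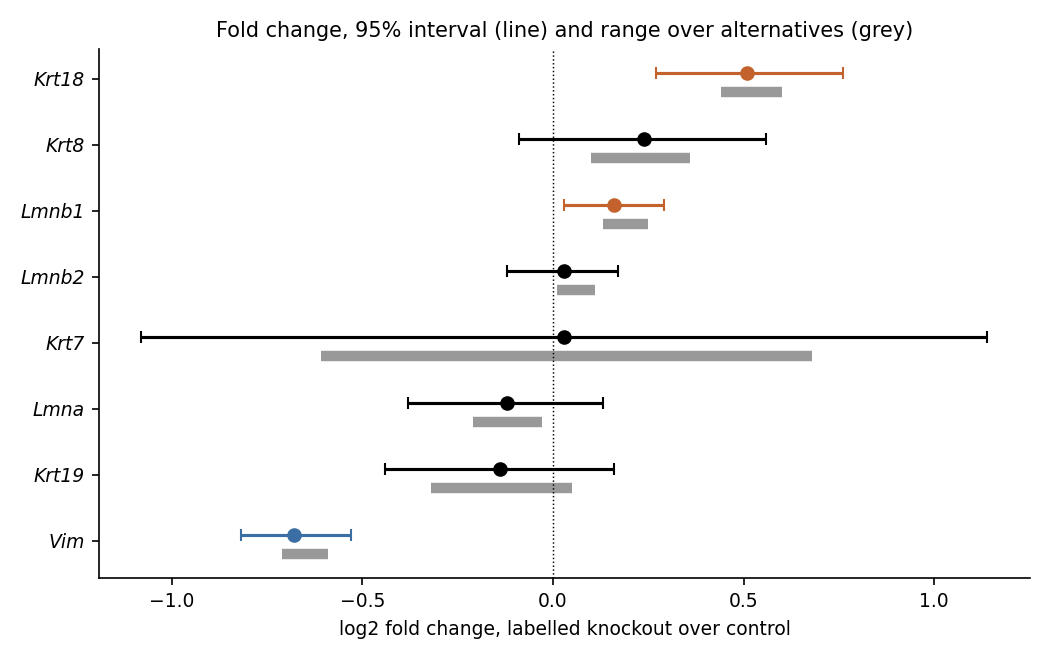
Log2 fold change of each gene (x axis), knockout-labelled libraries over controls, with its 95% interval from edgeR as a line and the range over up to 12 alternative settings as a grey bar. Vim lies below 0 and Krt18 above 0 throughout, and the interval of Krt7 spans -1.08 to 1.14.

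Lmnb1, encoding lamin B1 (chromosome 18, 56707813 to 56753424, plus strand), was the most abundant of the set, at 209.5 and 211.9 CPM in the controls and 231.4 and 240.9 CPM in the knockout-labelled libraries. Both knockout-labelled libraries were above both controls, with a small difference. The log2 fold change was 0.16 ± 0.06 (SE), edgeR adjusted p 0.0478, interval 0.03 to 0.29. The call was lost with DESeq2 (adjusted p 0.0590), with no filter on low counts (0.0741), and without control 1 (0.3430), control 2 (0.2616) or knockout 2 (0.0573).

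Lmnb2, encoding lamin B2 (chromosome 10, 80901203 to 80918245, minus strand), differed little between groups, at 86.7 CPM in both controls and 87.3 and 89.1 CPM in the knockout-labelled libraries. Its log2 fold change was 0.03 ± 0.07 (SE), edgeR adjusted p 0.8114, and the interval of -0.12 to 0.17 leaves room for only small changes. Lmna, encoding lamins A and C (chromosome 3, 88480147 to 88509956, minus strand), was at 16.2 and 18.3 CPM in the controls and 16.0 and 15.7 CPM in the knockout-labelled libraries. The latter were slightly lower than both controls, but the log2 fold change of -0.12 ± 0.12 (SE) did not pass (edgeR adjusted p 0.4742, interval -0.38 to 0.13).

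Levels of different genes were compared as normalised CPM per kb of annotated exon. Lmnb1 stood first in the controls at 71.1 ± 0.581 (SD, n = 2). Vim followed at 23.4 ± 0.107 and Lmnb2 at 20.2 ± 0.009, then Krt18 at 10.3 ± 0.104 and Krt19 at 9.08 ± 1.61, whose ranges nearly met (10.2 in control 2 for both). Krt8 was at 4.59 ± 0.530, Lmna at 2.96 ± 0.250 and Krt7 at 0.111 ± 0.057. In the knockout-labelled libraries Lmnb2 (20.6 ± 0.307) stood above Vim (14.7 ± 0.469), and Vim and Krt18 (14.7 ± 1.03) did not differ beyond the spread on this length. The rest of the order was the same. Dividing by the longest transcript instead raised Vim to 38.0 in controls and placed Krt19 (10.7) just above Krt18. With that length Vim also stayed above Krt18 in the knockout-labelled libraries, at 23.8 ± 0.761 against 14.7 ± 1.03, so their order there depends on the length used.

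**Figure D3:**
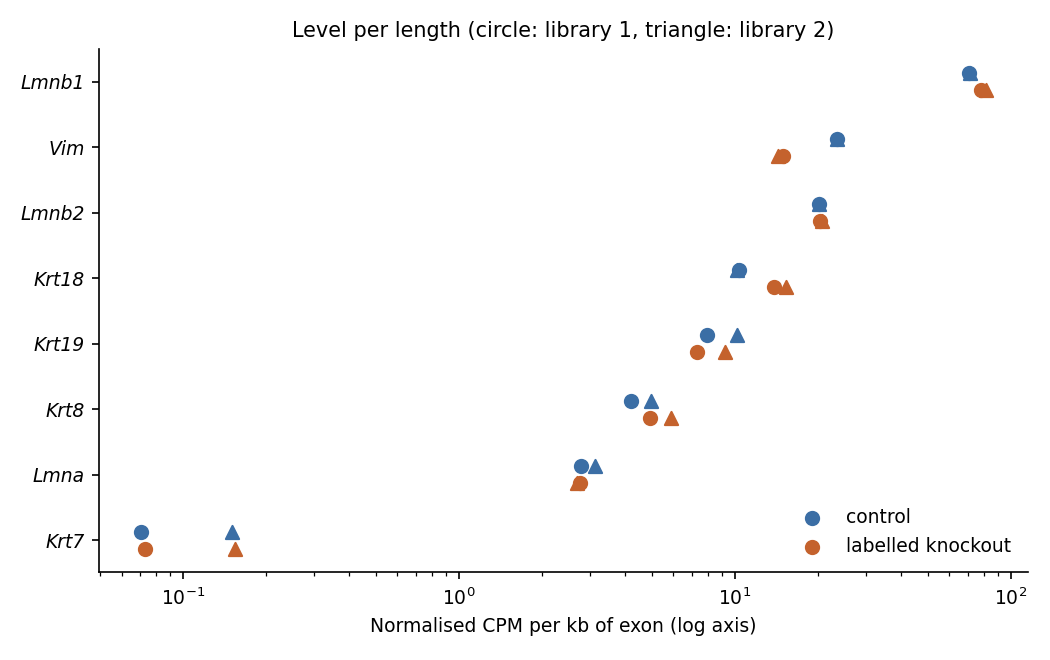
Normalised CPM per kb of exon on a log axis (x) for each gene in the 4 libraries. Lmnb1 leads at about 71.1 in controls, Krt7 is lowest at 0.111, and Vim and Krt18 are both at 14.7 in the knockout-labelled libraries with this length, though not with that of the longest transcript (23.8 against 14.7).

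On the same per-length scale, Vim made up 50.9% and 47.9% of the summed level of the 5 cytoplasmic genes in the controls and 36.4% and 31.9% in the knockout-labelled libraries. The 4 keratins together were at 22.6 and 25.5 in controls against 26.2 and 30.7 in the knockout-labelled libraries. For both quantities the groups did not overlap (exact permutation p 0.333 each). The ratio of type II to type I keratins was alike in both groups, at 0.234 and 0.251 in controls against 0.236 and 0.246 in the knockout-labelled libraries. Lmnb1 made up 75.5% and 75.4% of the 3 lamins in the controls and 77.2% and 77.6% in the knockout-labelled libraries. The ratio of Lmna to the B-type lamins was low in all 4 libraries, 0.0306 and 0.0341 in controls against 0.0279 and 0.0264 in the knockout-labelled libraries.

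Most remaining keratin genes had few or no counts. Of 50 other keratin symbols, 22 had no count in any library and 5 were tested. Of these 5, 1 was called higher and 0 lower, with a median log2 fold change of 0.65. The share called, 1 of 5, was below the 33.6% of all genes tested, and slightly above the 16.5% called higher. The called gene was Krt42, which rose from 5.30 ± 0.453 to 8.33 ± 0.165 CPM (a log2 fold change of 0.65 ± 0.17 at an edgeR adjusted p of 0.0064); without control 2 the adjusted p was 0.0565. Krt17, a type I keratin of stressed and basal epithelium, was at 3.67 and 2.98 CPM in the controls and 3.81 and 3.28 CPM in the knockout-labelled libraries and was not called. Of the keratins of stratified epidermis, Krt5, of the basal layer, had 1 count in all, and Krt14, its partner, had 0 in the controls and 2 in each knockout-labelled library. Krt10, of the layers above, was at 0.907 and 1.02 CPM in control cells against 1.33 and 1.72 CPM in the knockout-labelled libraries; the groups did not overlap, and it was not called (edgeR adjusted p 0.2246).

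Among 14 other filament proteins 12 were tested, of which 4 rose and 1 fell. The share called was 41.7%, against 33.6% of all genes tested, and the median log2 fold change was 0.46. Nes, encoding nestin, which copolymerises with vimentin, rose from 11.3 and 12.7 CPM to 23.7 and 24.5 CPM (a log2 fold change of 1.00 ± 0.12 at an edgeR adjusted p of 2.0e-06). Synm, encoding synemin, a large chain that also needs a partner such as vimentin or desmin, rose from 9.24 ± 0.502 to 16.3 ± 1.26 CPM (0.82 ± 0.14, adjusted p 9.4e-05). Ina, encoding the neuronal chain alpha-internexin, rose from 22.8 ± 1.26 to 31.4 ± 3.56 CPM and Sync, encoding the muscle protein syncoilin, from 1.01 ± 0.078 to 2.40 ± 0.060 CPM. Prph, encoding the peripheral-nerve chain peripherin, fell from 10.1 and 11.0 CPM to 4.62 and 6.09 CPM (-0.98 ± 0.17, adjusted p 1.9e-04). The type III chains thus differed in direction: Vim and Prph were called lower, and Sync, often classed with them, was called higher (1.24 ± 0.35, edgeR adjusted p 0.0092). Gfap, the astrocyte chain, was at 1.13 and 1.18 CPM in control cells against 1.88 and 1.34 CPM in the knockout-labelled libraries, without a call. The muscle gene Des was at 22.9 and 25.8 CPM in the controls and 25.9 and 21.6 CPM in the knockout-labelled libraries, without a call.

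Of 14 genes for proteins that anchor or crosslink filaments 12 were tested, of which 5 fell and 2 rose. The share called was 58.3%, against 33.6% of all genes tested, and the median was -0.14. Eppk1, encoding epiplakin, which binds keratin and vimentin bundles, fell from 69.7 and 74.6 CPM to 42.4 and 41.9 CPM (by -0.78 ± 0.08 on the log2 scale, edgeR adjusted p 2.4e-07). Dsp, encoding desmoplakin, which ties keratin to desmosomes, fell from 37.0 and 37.2 CPM to 21.5 and 18.2 CPM (-0.90 ± 0.10, adjusted p 1.5e-06). The cytoskeletal crosslinker gene Macf1 fell from 1093 ± 5.97 to 852.4 ± 14.3 CPM, and Plec and Jup, encoding plectin and plakoglobin, were also called lower. Pkp2, encoding the desmosomal plaque protein plakophilin 2, rose from 38.7 ± 0.877 to 57.7 ± 3.71 CPM, and Pkp4 was called higher.

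All 22 lamina and nuclear envelope partners were tested. Of these 5 rose, 4 fell and 13 were not called (40.9% called, against 33.6% of all genes tested), with a median of 0.00. Sun2, encoding an inner-membrane protein that joins the lamina to the cytoskeleton, fell from 33.7 and 36.9 CPM to 22.9 and 23.5 CPM (by -0.61 ± 0.10 on the log2 scale, edgeR adjusted p 8.1e-05), and the membrane protein gene Nrm fell from 30.7 ± 0.381 to 20.6 ± 1.48 CPM. Syne3, encoding the nesprin that binds plectin, rose from 3.26 and 3.88 CPM to 7.23 and 8.28 CPM (1.11 ± 0.20, adjusted p 1.7e-04), and Syne1 rose from 14.0 ± 0.335 to 22.5 ± 2.92 CPM. Lbr, encoding the lamin B receptor, was at 234.8 and 235.7 CPM in the controls and 247.6 and 220.6 CPM in the knockout-labelled libraries, with overlapping groups. Of the 5 enzymes that process the CaaX end of lamins (median 0.12) 1 was called, a smaller share than the 33.6% of all genes tested. The called gene, Zmpste24, encodes the protease that matures prelamin A. It rose from 36.8 CPM in both controls to 48.8 and 48.3 CPM (0.40 ± 0.08, adjusted p 9.2e-04).

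Regulators of the epithelial and mesenchymal state had 6 rises and 0 falls among 16 tested, with a median of 0.37. The share called was 37.5%, all higher, against 33.6% of all genes called and 16.5% called higher. Twist1 is in this list and in that of fibroblast markers. The epithelial splicing factor genes Esrp1 and Esrp2 rose from 35.0 ± 0.631 to 64.4 ± 1.32 CPM and from 5.68 ± 0.917 to 11.8 ± 2.31 CPM. The grainyhead factor genes Grhl2 and Grhl3 rose from 14.8 ± 1.25 to 30.9 ± 1.32 CPM and from 21.1 ± 0.146 to 28.1 ± 0.126 CPM. The mesenchymal repressor gene Zeb1 was also called higher, from 35.1 ± 0.965 to 44.2 ± 0.347 CPM, so the calls were not all on the epithelial side. Cdh1 and Epcam, encoding epithelial adhesion proteins, were not called (log2 fold change 0.10 ± 0.06 and 0.04 ± 0.09).

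**Figure D4:**
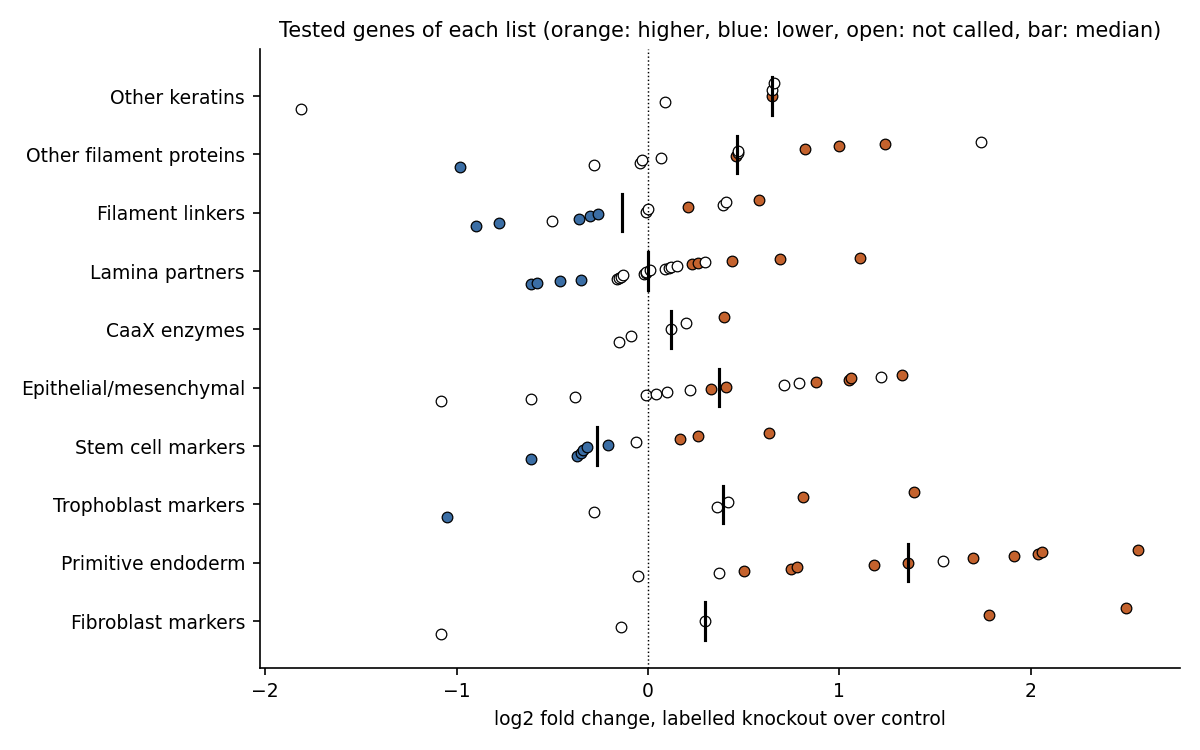
Log2 fold change (x axis) of each tested gene in the 10 lists of related genes and cell type markers, with a bar at the median of each list. Primitive endoderm markers lie mostly above 0 (median 1.36), and filament linkers lie on both sides of it (median -0.14).

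Because Krt8, Krt18, Krt19 and Lmna are expressed in other cell types of the early embryo and Vim in fibroblasts, markers of those cells were measured in the same libraries. In bulk RNA, more cells of a type and more RNA per cell cannot be told apart. Of 16 primitive endoderm markers 13 were tested, of which 76.9% were called, against 33.6% of all genes tested. Among the 16 markers 10 rose and 0 fell, with a median of 1.36 over those tested. Their summed level was 333.7 and 323.6 CPM in the controls and 487.9 and 489.4 CPM in the knockout-labelled libraries, and that of the defining genes Gata4, Gata6, Sox17 and Sox7 went from 3.67 and 3.43 to 14.5 and 15.3 CPM. The 10 markers called higher moved in the same direction as Krt18, and their part in its rise was not tested. Krt8 (log2 fold change 0.24), Krt19 (-0.14) and Lmna (-0.12) were not called, and the last 2 estimates were in the opposite direction. Of the 3 most significant, Lrp2, an endocytic receptor gene, rose from 68.9 ± 1.99 to 116.0 ± 5.01 CPM, Col4a1, encoding a basement membrane collagen, from 15.1 ± 0.768 to 34.2 ± 2.95 CPM and the adaptor gene Dab2 from 2.61 ± 0.345 to 10.8 ± 1.72 CPM. Col4a2, next by adjusted p, rose from 7.7 ± 0.889 to 19.8 ± 0.83 CPM. Lama1 was at 95.9 ± 5.02 CPM in the controls and 92.5 ± 3.95 CPM in the knockout-labelled libraries, without a call. Sox17 and Amn were also tested and not called, and Afp and Ttr had no count in any library.

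Of 12 trophoblast markers 6 were tested, of which 2 rose, 1 fell and 3 were not called, with a median of 0.39. The share called was above the 33.6% of all genes tested, though it rests on 6 genes. Tfap2c, which is also active in germ cells, rose from 52.7 ± 1.56 to 92.7 ± 2.37 CPM and Plet1 from 0.898 ± 0.116 to 2.37 ± 0.210 CPM. Gata2 fell from 2.03 ± 0.150 to 0.974 ± 0.228 CPM (edgeR adjusted p 0.0367), a call lost under 5 alternatives, among them DESeq2 (0.1179). The defining genes Cdx2, Elf5, Gata3 and Hand1 summed to 0.317 and 0.123 CPM in the controls and 0.856 and 1.72 CPM in the knockout-labelled libraries, and Cdx2 and Elf5 had no count in either control. Hand1 had 28 counts in knockout 2 and at most 7 in the other libraries. The summed trophoblast list was at 67.4 and 65.1 CPM in the controls and 107.0 and 113.4 CPM in the knockout-labelled libraries. Most of this sum in both groups, and most of its rise, came from Tfap2c. The part of trophoblast markers in the keratin values was not tested.

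Of 14 fibroblast and feeder cell markers 5 were tested, of which 2 rose (Tagln and Col5a2) and 0 fell, with a median of 0.30. The share called, 2 of 5, was slightly above the 33.6% of all genes tested, and above the 16.5% called higher, but it rests on 5 genes. The summed level below covers all 14 markers. Their summed level was 20.8 and 20.1 CPM in the controls and 19.4 and 23.3 CPM in the knockout-labelled libraries. Of the 5 defining genes, Dcn, Lum and Prrx1 had no count in any library, Col1a2 had at most 5 counts and Col1a1 was at 2.27 and 1.72 CPM in the controls and 2.48 and 2.40 CPM in the knockout-labelled libraries. Most of the summed level came from Thy1, a surface protein gene not counted among the defining ones, at 16.4 ± 0.511 CPM (SD, n = 2) in control cells against 14.9 ± 2.60 CPM in the knockout-labelled libraries, with overlapping groups and no call. The part of fibroblast markers in the Vim values was not tested.

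Exon overlaps and 1 pseudogene were examined for shared reads. Per GENCODE M21, Krt8 shares 101 exonic bases with Gm36026 and Krt7 shares 77 with Gm671, both on the opposite strand, and both had 0 counts in all 4 libraries. The processed pseudogene Krt8-ps had at most 1 count per library. No gene overlaps the other 6 in that annotation. For the strand setting of the counting and multi-mapping reads, nothing is given in the sources used here, and reads shared with other similar genes were not examined.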

How the data were processed

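Total RNA from 4 E14 samples was sequenced. The authors deposited raw counts, 1 row for each symbol. Ribo-Zero removed ribosomal RNA and random primers started the cDNA, per the labels' protocols. The tools named are cutadapt, HISAT2 and featureCounts, on mm10, per the submitters' processing notes; for versions, strand setting and multi-mapping reads, nothing is given in the sources used here. Columns bear the letters OK where titles bear KO and were matched by gene, role and number; 0 columns were unmapped. Total counts were 22611434 to 25344190 per library, so 3 counts, the limit that a count of 0 allows, are about 0.1 CPM.

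Counts were filtered with filterByExpr (minimum count 10, total 15), scaled by TMM and compared with edgeR 4.0.16 in R 4.3.3 (quasi-likelihood F test across all 17482 genes, Benjamini-Hochberg, threshold 0.05, 2 residual degrees of freedom). The standard error is the log2 fold change divided by the square root of F. DESeq2 1.42.0 and limma 3.58.1 were alternatives. The tests were tested on simulated data. Replicates differed by more than sampling noise (chi-square per degree of freedom 3.51 for the controls and 12.6 for the knockout-labelled libraries). A fit without 1 library takes its replicate spread from the intact pair alone, so p-values of such fits are not comparable with those of the main fit. Gene positions and lengths come from GENCODE M21, promoters from RefSeq. The genes, lists and tests were chosen with earlier results of these data known. Named genes are all 8 members and, per list, the called genes with the smallest adjusted p (at most 4), or the 2 most abundant where none was called, the 3 genes nearest Vim in pattern, genes overlapping a member and Ssrp1; other named genes were chosen after their values were seen.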

Additional observations from a re-analysis of the deposited data

How the results depend on the processing

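The number of intermediate filament genes called lower was 1 under all 12 alternatives. The number called higher was 2 and became 1 with DESeq2 and with no filter, and ranged from 1 to 2 when 1 library was left out (1 without control 1, control 2 or knockout 2); each time the lost gene was Lmnb1. Its log2 fold change was 0.17 with DESeq2 and 0.16 with no filter, and 0.13 to 0.19 with 1 library left out. Among the other lists (cell type markers aside) 19 genes were called higher and 10 lower. The calls in each list are given above beside the share called of all genes tested, 33.6%. Leaving out 1 library changed both counts, and the lower count was smallest without control 2. Scaling by library size alone gave 28 higher and 9 lower. The called genes with the smallest adjusted p of each list (at most 4) gave 368 values under alternatives. Of these, 362 kept their side of the threshold and 6 lost the call, 5 of them for Gata2 and 1 for Krt42. Other called genes named above, such as Sync, Zeb1, Pkp4, Plec and Jup, were not among them. The equal replicate numbers are not said to mark a shared source, 2 pairs cannot establish one, and deviations of same-numbered libraries had a correlation of 0.0273 over 10755 genes; with the replicate block 2 genes of the set were called higher and 1 lower, as without it, and Krt8 and Krt19 were not called (edgeR adjusted p 0.2279 and 0.4433). With the longest transcript as length, the Lmna to B-type lamin ratio in controls was 0.0443 instead of 0.0324, the type II to type I keratin ratio 0.228 instead of 0.242 and the Vim share 59.7% instead of 49.4%; the last 2 quantities were added after seeing the data. Depth limits Krt7, with at most 26 counts per library. Krt7 did not pass the filter of 5 CPM in 2 libraries and has no value there.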
